A study of Mus musculus with 8 samples.

Results

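Of the 27179 genes in the expression table, 9 were followed here as the creatine kinases and muscle energy buffers: the creatine kinases *Ckm*, *Ckb*, *Ckmt1* and *Ckmt2*, the adenylate kinase *Ak1*, the AMP deaminases *Ampd1*, *Ampd2* and *Ampd3*, and myoglobin, *Mb*. They were chosen by name. All 9 had a row in the expression table, 6 passed the filter on low values, and 4 had a line in at least 1 of the 4 m6A peak lists. C2C12 myoblasts, an immortalized line of mouse myoblasts, were sampled while dividing at 50% confluence in medium with 10% fetal bovine serum (GM), or after 3 days in medium with 2% horse serum, to which cells had been switched once over 90% confluent (3d DM). Both states shared high-glucose DMEM and collagen-coated dishes. Each state had 2 input RNA libraries, from which RNA levels came, and 2 libraries immunoprecipitated with an antibody against m6A (MeRIP-seq), from which the peaks came. The labels name no genetic change and no other agent. Whether the 2 replicates of a state were separate cultures was not stated, so p-values measure the spread between these libraries, which may be technical.

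Muscle contraction uses ATP faster than mitochondria and glycolysis can replace it at the onset of work. Creatine kinases move phosphate between ATP and creatine, and the store of phosphocreatine refills ATP within the fiber. Adenylate kinase makes ATP and AMP from a pair of ADP molecules, AMP deaminase converts that AMP to IMP, and myoglobin binds oxygen in the cytosol. Cytosolic creatine kinase works as a dimer of M and B chains, the products of *Ckm* and *Ckb*, and the change from B to M chains is a classic feature of muscle differentiation. m6A is a methyl group on adenosines inside mRNA, placed by the METTL3 complex within the DRACH sequence (D is A, G or T, R is A or G, H is A, C or T), and is most common near stop codons.

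The labelled states carried the markers of their stage. All 6 markers of differentiated muscle rose in 3d DM, their summed normalized value going from 4417 and 1054 in GM to 81914 and 119940 in 3d DM. Of the 6, *Myh8* (4.12 and 8.02 in GM) and *Actn2* (5.14 and 11.0 in GM) passed the filter only through the 3d DM libraries. The cell cycle genes *Mki67* and *Ccnb1* and the myoblast factor *Myf5* fell, while *Myod1* and *Pax7* passed no test. GM replicate 1 stood apart from GM replicate 2: 4 of the 6 differentiation markers were higher in it, including *Myog* at 1008 against 221, and 6.11% of all tested genes were at least 2.5-fold higher in it. The other cell types checked (adipocyte, osteoblast, endothelium, macrophage, brain cell and erythroid) had their markers below 10 in all 4 libraries, except *Pparg* (44.5 to 146.1), *Map2* (115 to 442), *Cd68* (9.94 to 26.4) and *Hba-a1* (5.50 to 73.0). Values are normalized signal without read numbers, so the depth behind them is unknown, and 24.4 to 41.3% of each library's total sat in a single entry of the table.

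The sequences that bear on the m6A results are the coding DRACH matches in stretches that the peak lists share. They are shown as 21 bases centred on the methylatable A, 5′ to 3′ along the RNA strand as DNA letters, with DRACH in capitals, read from RefSeq's GRCm38.p6 (mm10) sequence, so that a window at an exon edge includes intron bases. The shared stretch at the stop codon of *Ak1* holds 4 further matches past the last coding base, which are not shown. The first of these has its A in the stop codon itself, and the others lie in the 3′ UTR. The matches of *Ckb* and *Ak1* are in stretches present in all 4 lists, and those of *Mb* in a stretch present in 3 lists.
Ckb, chr12:111670887-111670907, minus strand: atggcccgGGACTggccggat
Ckb, chr12:111670267-111670287, minus strand: aggcacaaTGACAataagact
Ckb, chr12:111670259-111670279, minus strand: tgacaataAGACTttcctggt
Ckb, chr12:111670231-111670251, minus strand: aacgaggaGGACCacctgcga
Ak1, chr2:32629600-32629620, plus strand: aggcagaaAGACTggaggtga
Ak1, chr2:32630229-32630249, plus strand: ttacaggcGGACCtggctcag
Ak1, chr2:32633686-32633706, plus strand: acctatctTGACTccctgaag
Mb, chr15:77016024-77016044, minus strand: tgaagaagAGACAttccgggg
Mb, chr15:77016013-77016033, minus strand: cattccggGGACTttggagca
Mb, chr15:77015956-77015976, minus strand: ttccggaaTGACAttgccgcc

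RNA levels in 3d DM were compared with those in GM to ask which of the energy-buffering genes change as myoblasts differentiate. *Ckm*, *Ckb* and *Mb* rose, no tested member fell, and *Ak1*, *Ampd2* and *Ampd3* passed no test. The 3 genes called higher are of the 6 tested, where 7.01% of all 11406 tested genes were called higher and 9.96% lower by limma at an adjusted p under 0.05, that is, 800 and 1136 genes. After rescaling the libraries by median-of-ratios factors these counts were 1365 and 1281. The median log2 difference of the 6 tested members was 1.5 against -0.22 over all tested genes, and *Ckmt1*, *Ckmt2* and *Ampd1* stand outside these counts. Since these are bulk samples, fewer cells of a type and less RNA per cell cannot be told apart.

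**Figure D1:**
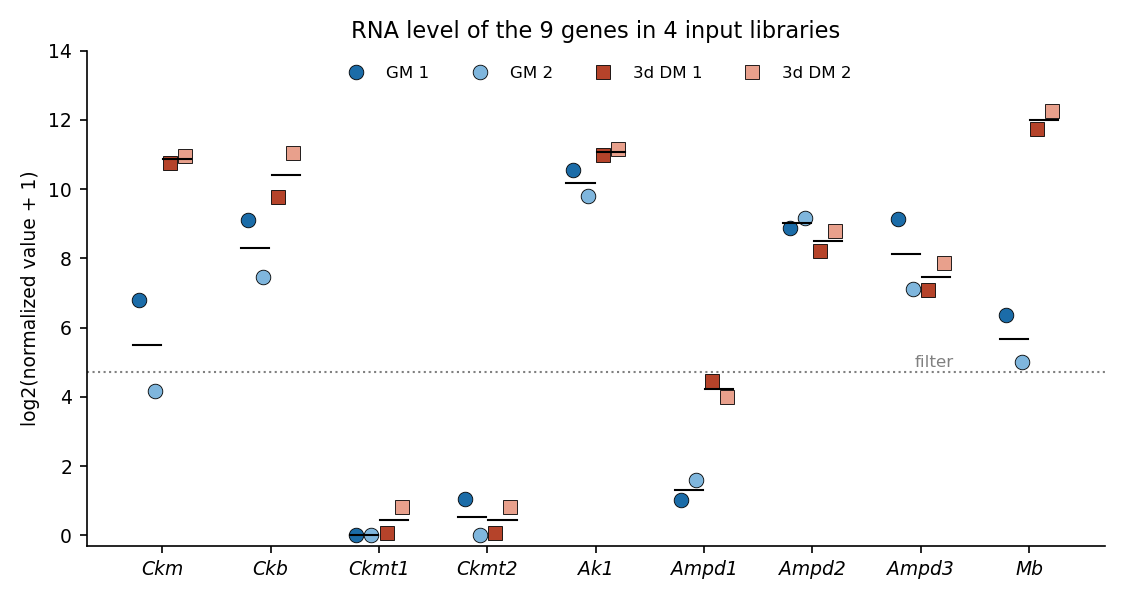
Each point is the log2 of the normalized value plus 1 of a gene in 1 input library, for 2 GM and 2 3d DM replicates, with a black line at each state's mean and a dotted line at the filter on low values. *Ckm* and *Mb* rise from near the filter in GM to high levels in 3d DM, the GM libraries lie far apart for *Ckm*, *Ckb* and *Ampd3*, and *Ckmt1* and *Ckmt2* stay at the bottom in all 4 libraries.

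*Ckm*, the muscle-type creatine kinase (Entrez 12715, chr7:19404776-19422841 in mm10, plus strand), had normalized values of 109.9 in GM replicate 1 and 17.1 in GM replicate 2, against 1740.3 and 1996 in the 3d DM libraries. In the sentences that follow, pairs of values are given in the order of the replicates. Both 3d DM libraries were far above both GM libraries, and GM replicate 1 was 6.43-fold above GM replicate 2. The means were 63.5 ± 65.6 in GM, against 1868 ± 181 in 3d DM (SD, n = 2), a ratio of 29.4. The log2 difference was 5.38 with a limma standard error of 0.46 (adjusted p = 4.5e-29). Without 3d DM replicate 1 it was 5.48 (limma adjusted p = 0.0705) and without 3d DM replicate 2 it was 5.28 (limma adjusted p = 0.0586), so the call was lost in both, with the size kept.

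*Ckb*, the brain-type chain that myoblasts also make (Entrez 12709, chr12:111669361-111672338, minus strand), had values of 551 and 177 in GM, against 875 and 2096 in 3d DM. The groups did not overlap, but each was wide: GM replicate 1 was 3.12-fold above GM replicate 2, and 3d DM replicate 2 was 2.40-fold above 3d DM replicate 1. The means were 364 ± 265 and 1485 ± 864 (SD, n = 2), a ratio of 4.08, and the log2 difference was 2.11 with a limma standard error of 0.44 (adjusted p = 2.4e-05). The call was kept without GM replicate 1 and lost without any of the other libraries. Without GM replicate 2 the log2 difference was 1.29 (limma adjusted p = 0.366), without 3d DM replicate 1 it was 2.74 (limma adjusted p = 0.117) and without 3d DM replicate 2 it was 1.48 (limma adjusted p = 0.234). Of the brain cell markers, *Rbfox3*, *Gfap* and *Snap25* were at or near 0 in all 4 libraries, and *Map2* was at 442 and 166 in GM, against 115 and 157 in 3d DM.

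The limma standard errors carry little of a gene's own spread, because the fit took the spread entirely from genes of like level. The standard error from a gene's own 4 values was 1.31 for *Ckm*, 1.03 for *Ckb* and 0.72 for *Mb* on the log2 scale, above limma's, and 0.39 for *Ak1*, below it. After median-of-ratios rescaling the limma adjusted p was 0.0061 for *Ckm* and 0.0228 for *Ckb*, so the size of the p-values depended on the scaling. The higher level of *Ckm* and *Ckb* in GM replicate 1 went with that of 4 of the 6 differentiation markers, while *Myh8* and *Actn2* were lower in it. The part of these markers in the spread of *Ckm* and *Ckb* was not tested.

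*Ckmt1* (chr2:121357714-121363737, plus strand) and *Ckmt2* (chr13:91853387-91876885, minus strand) encode the ubiquitous and the sarcomeric mitochondrial creatine kinase. *Ckmt1* was listed at 0 in both GM libraries and at 0.039 and 0.75 in 3d DM, and *Ckmt2* at 1.06 and 0.001 in GM, against 0.039 and 0.75 in 3d DM. The same 3d DM pair was listed for *Cygb*, *Cdh5* and *Snap25*, and the GM pair of *Ckmt2* for *Cygb*. These values therefore cannot be read as levels particular to *Ckmt1* or *Ckmt2*. Both lay below the filter value of 25.1 in every library and were not tested. Neither had a peak line.

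Per kilobase of the longest coding transcript, the creatine kinase RNA of GM was almost all *Ckb*, and that of 3d DM was shared between *Ckb* and *Ckm*. The *Ckm* share of the family was 9.65% and 4.94% in GM, against 51.6% and 33.8% in 3d DM. It was higher in both 3d DM libraries, by 35.4 percentage points in the mean (two-sided exact permutation p = 0.333, the smallest that 2 libraries against 2 can give). The *Ckb* share was 90.2% and 95.1% in GM, against 48.4% and 66.1% in 3d DM, so *Ckb* remained the larger share in 3d DM replicate 2 and not in 3d DM replicate 1. With lengths from the union of exons, in which *Ckb* is counted as longer, the *Ckm* share was 66.4% and 48.6% in 3d DM and the mean difference 44.9 points. The longest coding transcript of *Ckm* has 2742 bases and the other of its 2 coding transcripts has 1235. With the shorter length, an alternative chosen after the data were seen, the *Ckm* share was 19.2% and 10.3% in GM, against 70.3% and 53.1% in 3d DM, so which isozyme made up the larger share in 3d DM replicate 2 depended on the length. The summed level of the family per kilobase was 415 and 126 in GM, against 1229 and 2153 in 3d DM.

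**Figure D2:**
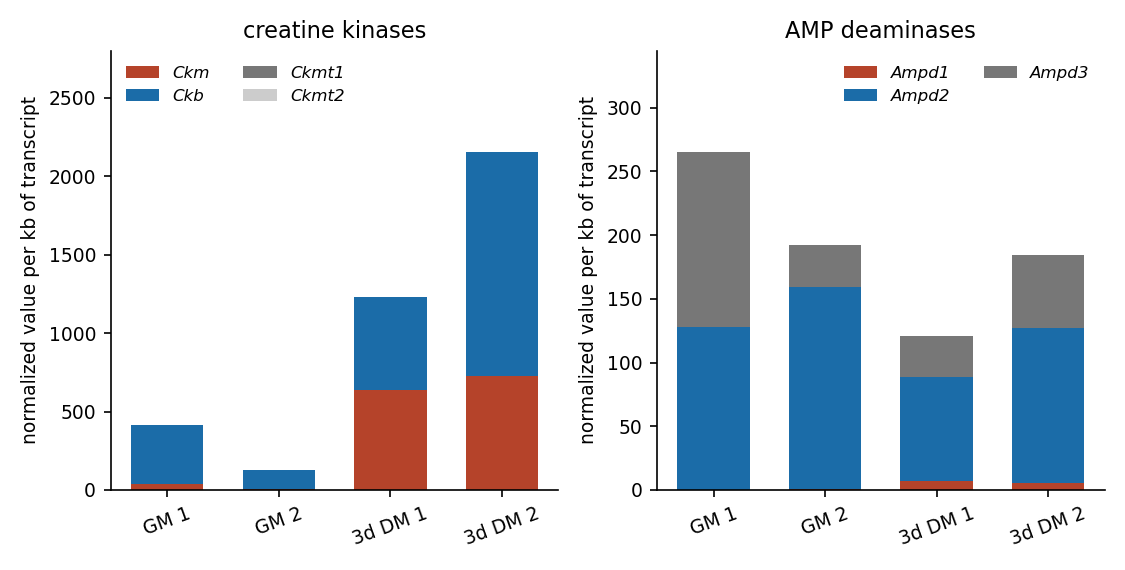
Stacked bars give the normalized value per kilobase of the longest coding transcript for each creatine kinase gene (left) and each AMP deaminase gene (right) in the 4 input libraries. In 3d DM the creatine kinase bars grow and gain a *Ckm* part of 635 and 728, against 40.1 and 6.24 in GM, while the AMP deaminase bars are made mostly of *Ampd2* and *Ampd3* in all 4 libraries.

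*Mb* (Entrez 17189, chr15:77015487-77050670, minus strand) had the largest difference among the members. Its normalized values were 81.2 and 31.1 in GM, against 3430.2 and 4879.8 in 3d DM, with the lowest 3d DM library far above the highest GM library. The means were 56.2 ± 35.4 and 4155 ± 1025 (SD, n = 2), a ratio of 74.0, and the log2 difference was 6.31 with a limma standard error of 0.45 (adjusted p = 2.6e-42). It was called in all 12 alternative fits, though at a limma adjusted p of 0.0011 after median-of-ratios rescaling. No other globin of the fixed list passed the filter: *Cygb* and *Ngb* were at or below 1.54 in every library. The erythroid factor gene *Gata1* was listed at 0 throughout, and *Hba-a1* was at 73.0 and 13.1 in GM, against 5.50 and 12.04 in 3d DM.

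*Ak1*, the cytosolic adenylate kinase of muscle (Entrez 11636, chr2:32621758-32635058, plus strand), was already abundant in GM. Its values were 1508 and 897 in GM, against 2023 and 2297 in 3d DM, without overlap between the groups. The log2 difference of 0.89, with a limma standard error of 0.42, passed no test (adjusted p = 0.144). After rescaling by median-of-ratios factors it was 1.12 (limma adjusted p = 0.0229) and by trimmed-mean factors 1.12 (limma adjusted p = 0.0240), so the call depended on the scaling of the libraries.

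No AMP deaminase passed the test. *Ampd2*, the liver-type and widely expressed form (chr3:108074062-108086651, minus strand), was at 466 and 578 in GM, against 296 and 444 in 3d DM, a log2 difference of -0.52 with a limma standard error of 0.45 (adjusted p = 0.532). *Ampd3*, the form of red blood cells, which muscle also makes (chr7:110768206-110812405, plus strand), was at 562 and 137 in GM, against 134 and 234 in 3d DM. Its groups overlapped, with GM replicate 1 alone high, and the log2 difference of -0.64 with a limma standard error of 0.47 (adjusted p = 0.423) turned to 0.37 without that library (limma adjusted p = 0.907). *Ampd1*, the form of adult skeletal muscle (chr3:103074014-103099720, plus strand), was at 1.02 and 2.01 in GM, against 21.02 and 15.1 in 3d DM, all below the filter, so it was not tested. The same GM pair was listed for the osteoblast marker *Sp7*, so it cannot be read as a level particular to *Ampd1*. The unfiltered log2 difference and the GM shares that follow rest on this pair. Without the filter the log2 difference of *Ampd1* was 2.93 (limma adjusted p = 0.0014). Per kilobase, *Ampd1* made up 0.13% and 0.36% of AMP deaminase RNA in GM, against 5.96% and 2.81% in 3d DM. *Ampd2* made up 48.1% and 82.3% in GM, against 67.0% and 66.1% in 3d DM. The *Ampd3* share differed by -5.51 points between the means (exact permutation p = 1), and by 11.7 points without GM replicate 1.

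Ordered by level per kilobase of the longest coding transcript, *Ak1* led in GM at 577 ± 207, followed by *Ckb* at 247 ± 180 and *Ampd2* at 143 ± 22 (SD, n = 2). The libraries of *Ak1* lay above all those of *Ckb*, while those of *Ampd2* lay within the range of *Ckb*. *Ampd3* followed at 85.3 ± 73.5, *Mb* at 50.9 ± 32.1 and *Ckm* at 23.2 ± 23.9, with ranges that overlapped from each to the next. In 3d DM, *Mb* led at 3764 ± 928, ahead of *Ak1* at 1036 ± 93, *Ckb* at 1009 ± 587 and *Ckm* at 681 ± 66. *Mb* lay above all of these and *Ak1* above *Ckm* without overlap, while the range of *Ckb* overlapped with those of *Ak1* and *Ckm*. Below them came *Ampd2* at 101 ± 29, *Ampd3* at 44.9 ± 17.3 and *Ampd1* at 6.19 ± 1.45, with no overlap between neighbours. The place of *Ckm* in 3d DM depended on the length: per kilobase of the union of exons it was at 641 ± 62, above *Ckb* at 513 ± 298, with ranges that overlapped. Per kilobase of its shorter coding transcript it was at 1513 ± 147, with both libraries above those of *Ak1*. In GM that length put *Ckm* at 51.4 ± 53.1, about level with *Mb*.

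Genes of the surrounding pathway were read from lists of 34 genes, of which 33 were in the table and 25 were tested. Of these, 4 rose and 4 fell, with a median log2 difference of -0.46 against -0.22 over all tested genes. Among the genes called, *Prkaa2* passed the filter on low values only through its 3d DM libraries. *Ada* passed it only through its GM libraries, with 11.1 and 8.57 in 3d DM. For creatine itself, the synthesis enzymes *Gatm* and *Gamt* and the transporter *Slc6a8* passed no test, with log2 differences of -0.18, 0.96 and 0.07. The mitochondrial adenylate kinases *Ak3* and *Ak4* passed no test, with log2 differences of -0.08 each.

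In the purine nucleotide cycle, in which AMP deaminase, adenylosuccinate synthase and adenylosuccinate lyase act in turn, the 2 synthase genes moved in opposite directions. *Adss1*, the muscle form, rose from 218 and 83.3 to 1098 and 1427, by 3.20 on the log2 scale with a limma standard error of 0.45 (adjusted p = 5.5e-11). *Adss2*, the form of most other tissues, fell from 1482 and 1678 to 273 and 449, by 2.17 on the log2 scale with a limma standard error of 0.43 (adjusted p = 1.1e-05). In neither gene did the groups overlap. The lyase *Adsl* passed no test at -0.50. Of the enzymes that handle adenosine and adenine, *Ada* (log2 difference -2.68), *Aprt* (-1.71) and *Adk* (-1.22) fell, *Adk* near the threshold at a limma adjusted p of 0.0467 and above it in 8 of 12 alternative fits. With each of the 4 libraries left out in turn, *Aprt* lost its call in 3 fits (limma adjusted p up to 0.192). *Ada* (up to 0.0784) and *Adss1* (up to 0.0647) lost theirs without either 3d DM library, and *Adss2* (0.0575) without 3d DM replicate 1.

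AMP-activated protein kinase, the sensor of AMP, is built of a catalytic, a scaffold and a nucleotide-binding subunit, each with several genes. *Prkag3*, the nucleotide-binding subunit of skeletal muscle, rose from 39.2 and 10.1 in GM to 827 and 989.9 in 3d DM, by 5.43 on the log2 scale (limma adjusted p = 8.6e-26). *Prkaa2*, the catalytic subunit of muscle, rose from 9.26 and 23.1 to 240.4 and 268, by 4.02 on the log2 scale (limma adjusted p = 1.6e-11), and unlike *Ckm* it was lower in GM replicate 1 than in GM replicate 2. Both GM values of *Prkaa2* lay below the filter value of 25.1, so it entered the test only through its 3d DM libraries. The scaffold *Prkab2* rose from 122 and 159 to 296 and 372, by 1.25 on the log2 scale, at a limma adjusted p of 0.0481 that 8 of 12 alternative fits did not keep under 0.05. Without 3d DM replicate 1, *Prkag3* (limma adjusted p = 0.0520) and *Prkaa2* (limma adjusted p = 0.0603) lost their calls too, with the size kept. The other 4 subunits passed no test, with log2 differences of -0.60 for *Prkaa1*, -0.70 for *Prkab1*, -0.65 for *Prkag1* and -1.06 for *Prkag2*. The 5 genes of nucleotide exchange at mitochondria, *Slc25a4*, *Slc25a5* and *Vdac1* to *Vdac3*, were among the most abundant of the lists and passed no test, with log2 differences from -0.95 to -0.25.

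**Figure D3:**
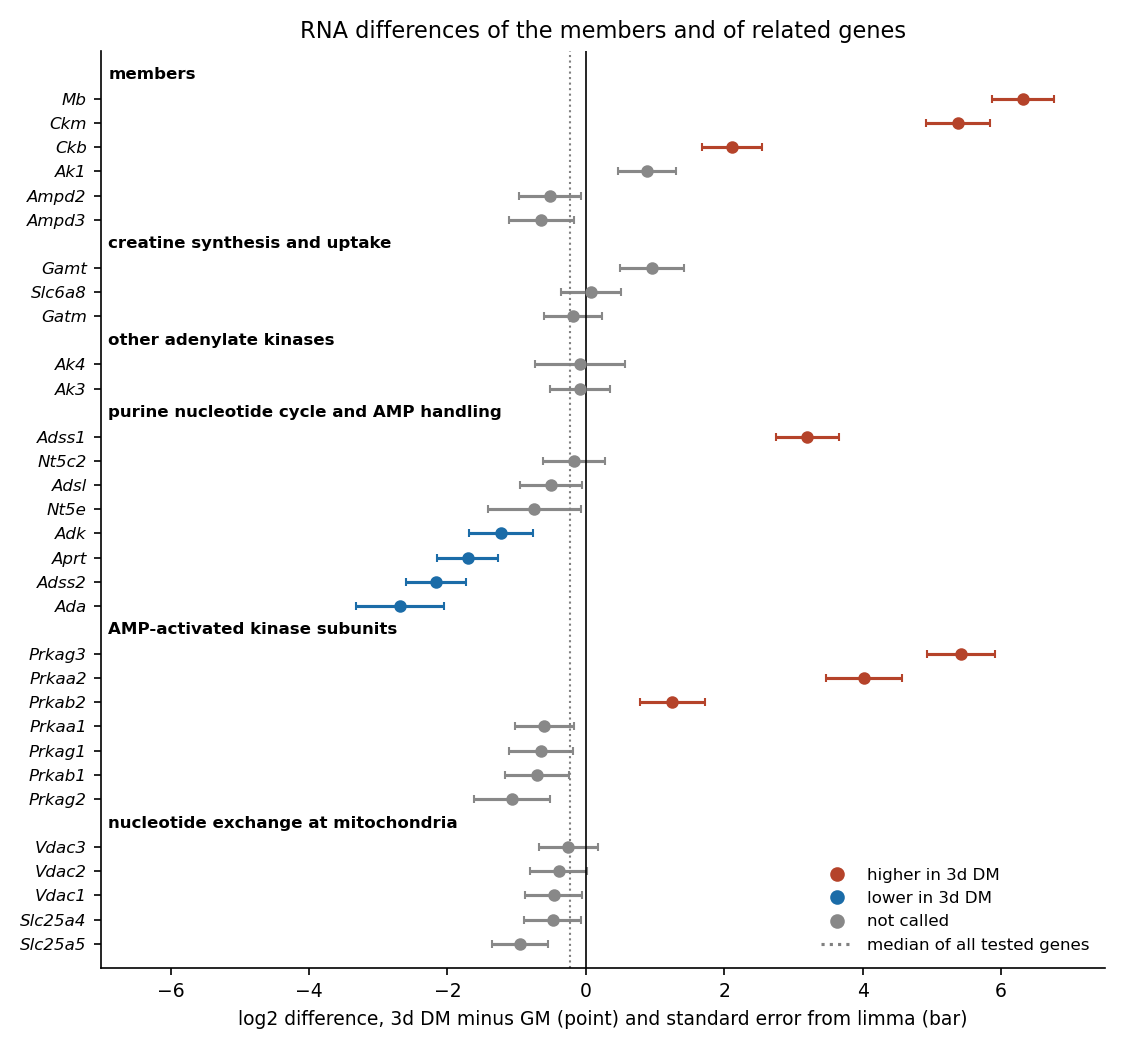
Points give the log2 difference of 3d DM minus GM and bars the limma standard error for the 6 tested members and the 25 tested genes of the related lists, coloured by call, with a dotted line at the median of all tested genes. *Mb*, *Prkag3*, *Ckm*, *Prkaa2*, *Adss1*, *Ckb* and *Prkab2* lie to the right in the colour of genes called higher, and the 4 genes called lower are all of purine handling.

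Peak lists were then read for m6A on the members, with each list made from 1 immunoprecipitated library against its own input. *Ckb* and *Ak1* had peaks in all 4 lists, *Mb* in 3, *Ckm* in 1, and *Ckmt1*, *Ckmt2*, *Ampd1*, *Ampd2* and *Ampd3* in none. Among the tested genes with a symbol, 76.2% had a peak in at least 1 list and 42.6% in all 4. *Ampd2* and *Ampd3* lie in the range of mean values between 200 and 800, where 84.2% of tested genes had a peak in at least 1 list. Distinct peaks on the members numbered 4 and 5 in GM, against 6 and 5 in 3d DM. *Ak1* held 1 and 4 of them in GM, against 4 and 2 in 3d DM. Over all genes, with regions merged across the lists, there were 13015 and 10870 regions in GM, against 12879 and 9214 in 3d DM. These counts were not tested. Of the 5939 peak regions called in all 4 lists, 0.0% were called as changed in fold enrichment by limma (adjusted p under 0.05). An unadjusted p under 0.05 was found for 212 of them. Regions missing from any list could not enter this test, so peaks gained or lost between the states were not tested. The authors' own comparison of the states by exomePeak, at a p of at most 0.05, reported peaks enriched in each state.

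**Figure D4:**
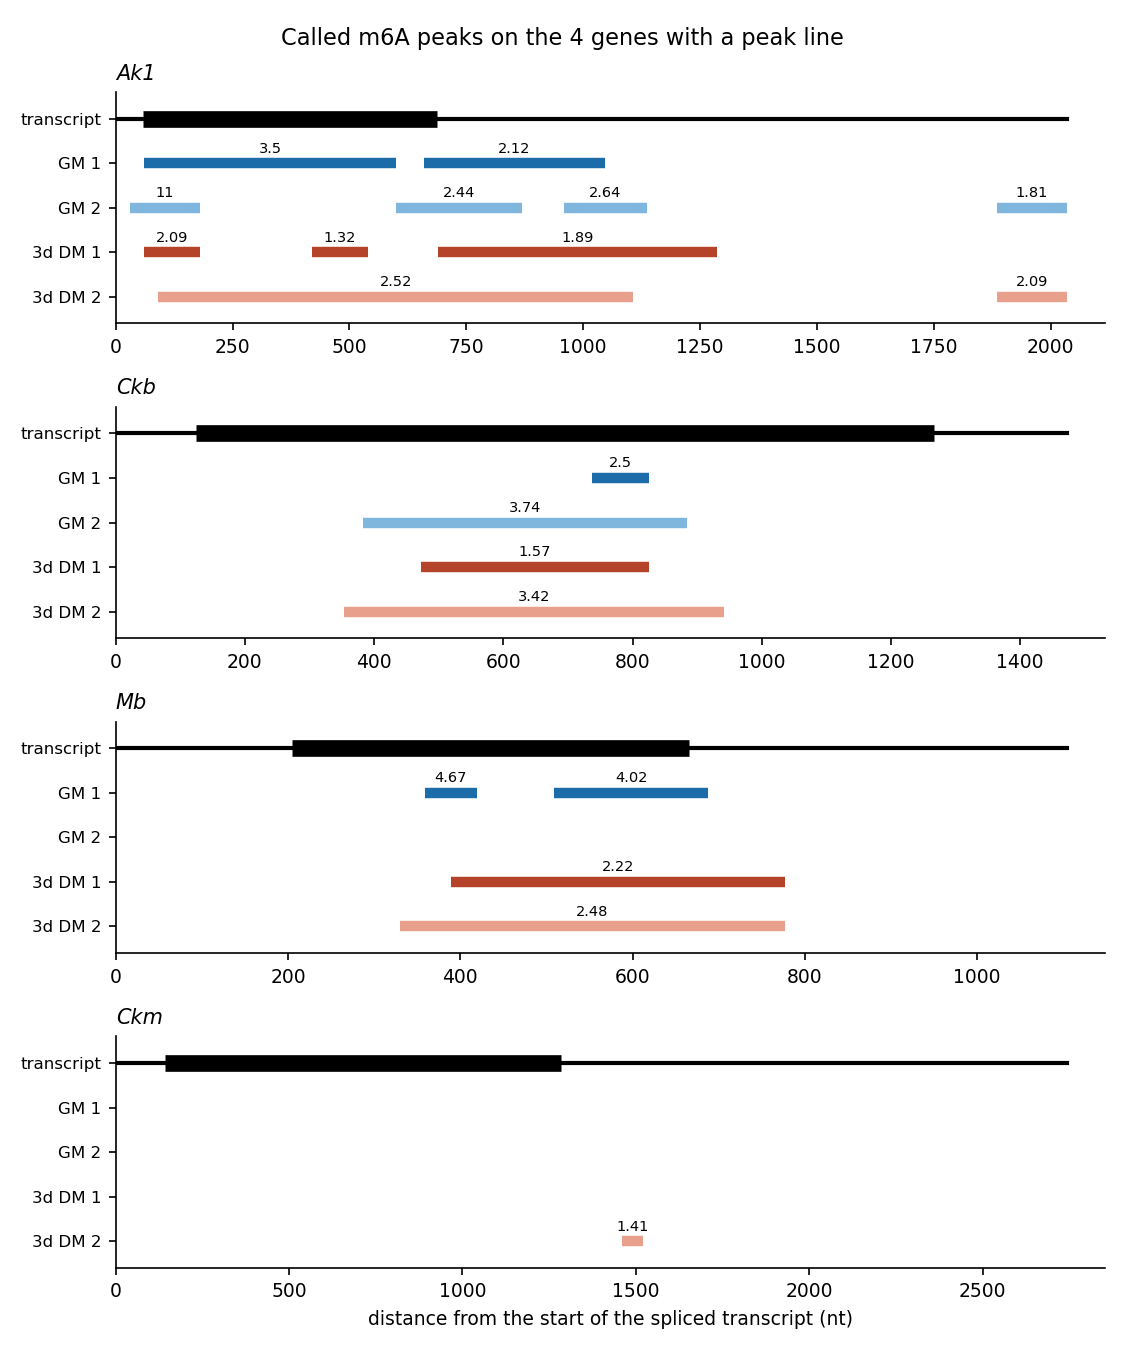
Coloured bars show the peaks of each list along 1 spliced transcript of each gene, in nucleotides from its start, with the fold enrichment over input above each bar and the coding sequence as the thick part of the black line. The *Ckb* peaks lie inside the coding sequence. Those of *Ak1* cover coding sequence and the start of the 3′ UTR, with a further peak at its end in GM 2 and 3d DM 2. The *Ak1* peak with a fold of 11 in GM 2 begins in the 5′ UTR. Those of *Mb* run past the stop codon, except 1 in GM 1 with a fold of 4.67, which lies inside the coding sequence. The single *Ckm* peak, with a fold of 1.41, lies in the 3′ UTR.

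On *Ckb*, each list held 1 line, wholly in coding sequence and within chr12:111669974-111671543. Its fold enrichment was 2.5 and 3.74 in GM, against 1.57 and 3.42 in 3d DM, with the groups overlapping. The log2 difference was -0.40 with a limma standard error of 0.42 (adjusted p = 0.994), while the RNA of *Ckb* rose. Shared by all 4 lists were 2 coding stretches of 41 and 48 bases, with 1 and 3 DRACH matches, the *Ckb* windows shown above. Windows of these lengths hold a DRACH match in 54.8% and 60.9% of cases across all transcripts.

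On *Ak1*, the lists held 7, 10, 9 and 8 lines, spread over several transcripts, in the order GM replicates 1 and 2 and 3d DM replicates 1 and 2. Most fell into the region chr2:32629534-32634337, from the 5′ UTR, which 1 line in GM replicate 2 reached, to beyond the stop codon. The largest fold there was 3.5 and 11 in GM, against 2.09 and 2.63 in 3d DM, so both GM libraries were higher. The log2 difference was -1.40 with a limma standard error of 0.51, an unadjusted p of 0.0155 and an adjusted p of 0.994. The fold of 11 came from 1 line at the 5′ end in GM replicate 2, and the other lines of that library in the region had folds of 2.33 to 2.72. With the mean of the lines in place of the largest, the difference was -0.56. The lines that reached across or beyond the stop codon had folds that overlapped between the states, 2.12 to 2.28 and 2.33 to 2.72 in GM, against 1.85 to 1.90 and 2.52 to 2.63 in 3d DM.

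A second *Ak1* region, chr2:32634875-32635058 at the end of the 3′ UTR, was called in GM replicate 2 at a largest fold of 1.81 and in 3d DM at 1.70 and 2.12, and not in GM replicate 1. In the first region the 4 lists shared 23, 36 and 31 coding bases in 3 exons, with 1, 0 and 1 DRACH matches. They also shared a stretch around the stop codon with 5 matches, and a stretch within the 3′ UTR with 0. Of those 5 matches, 4 lie past the last coding base: the first has its A in the stop codon, and the others lie in the 3′ UTR. Windows of 23 and 31 bases hold a match in 33.8% and 44.2% of cases across transcripts.

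On *Mb*, GM replicate 1 had 4 lines with folds of 4.02 to 4.67, GM replicate 2 had none, and 3d DM had 3 lines each, with folds of 2.22 to 2.24 and 2.45 to 2.49. The folds were thus higher in the GM library that had a peak. The peak caller's p-values went the other way, 0.0010 at the smallest in GM replicate 1 against 1e-113 and 1.6e-65 in 3d DM, where the RNA was abundant. The region, chr15:77015811-77017768, runs from the coding sequence into the 3′ UTR. It was not tested between states, as it was missing from 1 list. The 3 lists shared coding stretches of 31 and 14 bases with 0 DRACH matches, and a stretch of 175 bases, 144 of them coding, with 3. These 3 matches, the *Mb* windows above, lie in the last part of the coding sequence. Windows of 14 and 31 bases hold a match in 19.5% and 44.2% of cases across transcripts.

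*Ckm* had only 1 line, in 3d DM replicate 2. It covered 60 bases of the 3′ UTR of its longest transcript at chr7:19421560-19421619, with a fold of 1.41 and a p-value of 0.0015 from the peak caller. Only 0.51% of the lines in that list had a lower fold, and the stretch held 0 DRACH matches. Members' folds were low among all lines in general: the median fold of the lists was 4.37 and 3.91 in GM, against 3.70 and 4.07 in 3d DM, and of the members' lines only that of *Ak1* at 11 and that of *Mb* at 4.67 in GM replicate 1 exceeded their list's median.

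Other annotated genes overlap 6 of the members. An antisense gene lies at *Ckm*, *Ckmt2* and *Ampd2*, and *Strc* lies opposite *Ckmt1*. *Rnf141* and *B430319F04Rik* lie opposite *Ampd3*, and the miRNA gene *Gm47282* lies on the same strand as *Ampd3*. *Apol6* and an antisense gene lie opposite *Mb*. The libraries were made with a stranded kit, and whether the gene counts used strand is not given in the sources used here, so reads from overlapping genes cannot be told apart.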

How the data were processed

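Values were taken from the deposited expression table and 4 peak lists, with samples grouped by their labels and none left out. The authors aligned trimmed reads to mm10 with HISAT2 (2.1.0), and the normalized signal they deposited (TMM by its name) came from gene counts treated in edgeR. Whole reads could not be got back from its low values, so depth is unknown and no counting interval is given. The authors called peaks with exomePeak in each sample against its input. The deposited lists give a fold enrichment (ratio of precipitated to input RNA) and its p-value on each protein-coding transcript.

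RNA levels were tested on log2(value + 1) with limma 3.58.1 (R 4.3.3; intensity trend, no replicate block, Benjamini-Hochberg) for genes with at least 2 parts per 1e+06 of the column total in 2 or more libraries. Fold changes on this scale understate the change of low genes. The prior degrees of freedom were infinite for RNA and 11.8 for peak regions. Peak regions were lines of the 4 lists merged on the same strand where their genomic spans shared 1 bp. Spans included introns, so lines could be joined without a shared exon base, whichever gene they were listed for. Each library's value was the largest log2 fold in the region. Peak starts were counted from 0 in the lists and are printed from 1. Shares were compared by the exact permutation test. Positions and lengths came from GENCODE M21, and sequence from RefSeq GRCm38.p6. Python 3.11.15, numpy 2.4.6, pandas 2.3.3 and matplotlib 3.10.9 were used.

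The members and lists were chosen with earlier results of these data known. Named by rule were the 9 members, 5 markers of state, the pathway genes past the threshold (others as values beside their counts) and the 3 genes of a mean value of at least 100 nearest in profile to *Ckm* and *Ckb*. Further markers of state and of other cell types were named after their values were seen. Alternatives were other filters, pseudocounts of 0.1 and 4, 2 rescalings, no trend, a replicate block, stricter peaks, other overlaps and lengths, and each replicate left out. The shorter *Ckm* length was added after the data were seen. DESeq2 was not run, since the table holds no counts. Some genes of the lists are not reported here and are left out of the lists' counts.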

Additional observations from a re-analysis of the deposited data

How the results depend on the processing

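*Mb* kept its direction and its call in all 12 alternative fits of RNA level, with log2 differences of 5.64 to 6.99. The number of members called higher was 3. It was 4 without a filter, with *Ampd1* added, and 4 under both rescalings, with *Ak1* added, and 1 to 3 with a replicate left out. The genes called higher, 800 in all, were 524 with the filter at 3 libraries, 1365 with median-of-ratios and 1360 with trimmed-mean rescaling, and 101 to 679 with a replicate left out. The 1136 called lower were 44 to 573 with a replicate left out. The causes were not tested. *Ampd3* turned from a log2 difference of -0.64 to 0.37 without GM replicate 1 (range -1.66 to 0.37), and its share of AMP deaminase RNA from -5.51 to 11.7 percentage points (range -22.7 to 11.7 over left-out replicates). The *Ckm* share stayed higher in 3d DM under each length and each replicate left out, by 26.5 to 47.0 points. The log2 enrichment difference of the *Ckb* region turned from -0.40 to 0.16 without 3d DM replicate 1 (range -0.96 to 0.16). With only lines of a fold of at least 4, distinct peaks on members differed by -1.5 between states, in place of 1. Where a state is left with 1 library, that library is assumed to vary like the others.

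The replicate numbers are shared by the states in the labels without a stated pairing, and there are only 2 pairs. Deviations of same-numbered libraries correlated at r = 0.29 over 11406 genes and at r = 0.13 over 5939 peak regions. With the replicate block, 593 genes were called higher and 705 lower, and of the genes named with a call *Adk* (limma adjusted p = 0.191) and *Prkab2* (limma adjusted p = 0.180) lost theirs. Without read numbers, the precision of low values, such as those of *Ckmt1*, *Ckmt2* and *Ampd1*, cannot be judged.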

Other observations

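Among tested genes with a mean value of at least 100, those with the profile nearest to that of *Ckm* over the 4 input libraries, by Euclidean distance of centred log2(value + 1), were the slow troponin T *Tnnt1* (distance 0.11), *Hrc*, a calcium-binding protein of the sarcoplasmic reticulum (0.30), and the fast troponin T *Tnnt3* (0.38). *Tnnt1* had values of 412 and 63.3 in GM, against 6912 and 7464 in 3d DM. Its higher value in GM replicate 1 than in GM replicate 2 follows from its choice by profile over these same libraries. Nearest to *Ckb* were *Trim55*, a ubiquitin ligase of the sarcomere (0.36), *Foxo6* (0.37) and *Hecw2* (0.38). *Trim55* had values of 286 and 109 in GM, against 594 and 1048 in 3d DM.

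DRACH matches per kilobase of the longest coding transcript were 29.0 in *Ckmt1* and 27.6 in *Ckmt2*, the members with the least RNA, and 18.3 in *Ckb*, 17.3 in *Ak1*, 19.9 in *Mb* and 20.8 in *Ckm*, against a median of 20.3 over 21877 coding genes. *Ampd2*, which had no peak, had 15.1 per kilobase, and *Ampd3*, which had none either, 22.0. In the 250 bases before the starts that RefSeq lists (GRCm38.p6; 8 of 9 members had an entry), the E-box CANNTG, read the same on both strands, was found 4 times at *Ckmt2*, 1 to 3 times at the starts of *Ak1*, 2 to 3 times at those of *Mb*, 0 to 3 times at those of *Ampd3*, 1 time at *Ckm* and at each start of *Ampd2*, and 0 times at *Ckb* and *Ckmt1*. The narrower CAGCTG was found 1 time each at *Ckm*, at *Ckmt2*, at 2 starts of *Ak1* and at 2 starts of *Mb*. The windows of those 2 *Mb* starts overlap and hold the same CAGCTG. The windows of the *Ampd2* starts overlap too and hold the same CANNTG, so such sites are counted at each start. Matches were thus not limited to the members called higher. CANNTG is present before 66.2% and CAGCTG before 13.001% of all 32851 listed starts. The MEF2 motif matched at *Ckb* and at no other member, on both strands of the same bases, and is present before 2.92% of starts.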
